A study of Caenorhabditis elegans with 146 samples.

Results

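The Rab, Arf and endosomal trafficking genes of Caenorhabditis elegans were followed from the distal gonad to the zygote. The genes were chosen by symbol alone, as every gene named rab-, arf-, arl-, vps- or snx- with a number, and 67 of the 46927 genes in the count table met this rule. They comprise 20 rab, 3 arf, 6 arl, 31 vps and 7 snx genes. All were taken from the AZ212 strain, whose germline expresses a GFP-tagged histone H2B from the pie-1 promoter, in well-fed gravid hermaphrodites. Each gonad arm was cut into a distal segment of the mitotic region and transition zone (S1), a pachytene segment (S2), the loop (S3) and a diakinesis segment (S4). The -3, -2 and -1 oocytes, counted back from the spermatheca, and zygotes (P0) were collected singly. Every library thus came from 1 segment or 1 cell, and the somatic sheath cells that wrap the arm were harvested with it. The deposited quality table marks 104 of 135 stage libraries as used. These hold 19 libraries of S1, 17 of S2, 17 of S3 and 11 of S4. They also hold 6 of -3 oocytes, 13 of -2 oocytes, 15 of -1 oocytes and 6 of P0. The worms number 43, with each zygote labeled as of an unknown worm counted as its own worm.

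Rab proteins are small GTPases that mark membrane compartments and, when bound to GTP, recruit the tethers and motors that move vesicles between them. Arf and Arl proteins work in a related way in building vesicle coats and in organelle transport. Many Vps proteins, named for vacuolar protein sorting in yeast, are subunits of endosomal complexes. Retromer returns receptors from endosomes, HOPS and CORVET tether endosomes before fusion, ESCRT complexes bud vesicles into the endosome lumen, and sorting nexins bind endosomal membrane. The oocyte of this worm takes up yolk by receptor-mediated endocytosis through the receptor RME-2, so these compartments are busy in the proximal gonad.

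The used libraries held between 1273040 and 73449925 reads on genes, and 82 were of batch A and 22 of batch B, as the quality table names them. The summed TPM (transcript abundance per length) of 8 sheath genes had a median of 26.0 in S1, 1504 in -1 oocytes and 11.7 in P0. The 2 spermatheca genes ule-3 and ule-5 summed to a median of 14189 TPM in -1 oocytes and 4.30 in S1. In whole segments, a change in the number of cells of a type and a change in the RNA per cell cannot be told apart. The 5 oocyte genes had a summed median of 168 TPM in S1 and 4392 in -3 oocytes.

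Most of the members were expressed along the whole arm. Among the 67, 60 reached a median of 1 TPM in at least 1 stage, 50 did so in every stage, and 33 had a median of 10 TPM or more in every stage. TPM is per transcript length, so it is used here to compare genes. The most abundant member was arf-5, an Arf GTPase of the secretory pathway, with 20.8 to 1426 TPM over the 104 libraries and a median of 264. Of the Rabs, rab-8, which serves transport to the cell surface, led with a median of 152 TPM. It was followed by rab-1 of ER-to-Golgi transport at 146, and by rab-10 (recycling and exocytosis), rab-5 (early endosomes) and rab-7 (late endosomes) at 109.9, 109.7 and 107.6. These 5 Rabs overlapped widely between libraries, rab-8 running from 29.9 to 382 TPM and rab-5 from 3.04 to 945. On the scale used between stages, the stage of the highest median differed from member to member. Of the 60 members it was S1 for 7, S2 for 8, S3 for 11, S4 for 6, the -3 oocyte for 11, the -2 oocyte for 1, the -1 oocyte for 7 and P0 for 9.

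Other classes had their own leading members. In ESCRT it was vps-24 at a median of 248 TPM, with vps-20, also of ESCRT-III, at 203. In retromer vps-29 stood at 148 TPM, against 30.1 for vps-35 and 28.4 for vps-26. Both vps-24 and vps-29 share exonic bases with a neighboring protein-coding gene, 32% of the exonic length of vps-24 on the same strand and 26.5% of that of vps-29 on the opposite one, so their levels are less certain. The leading members of the remaining classes were arl-8 of lysosome transport (130 TPM), the HOPS subunit vps-39 (61.1), the kinase partner vps-15 (34), the GARP subunit vps-51 (33.3), the lipid transfer protein vps-13 (20.03) and snx-1 (15.8).

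**Figure D1:**
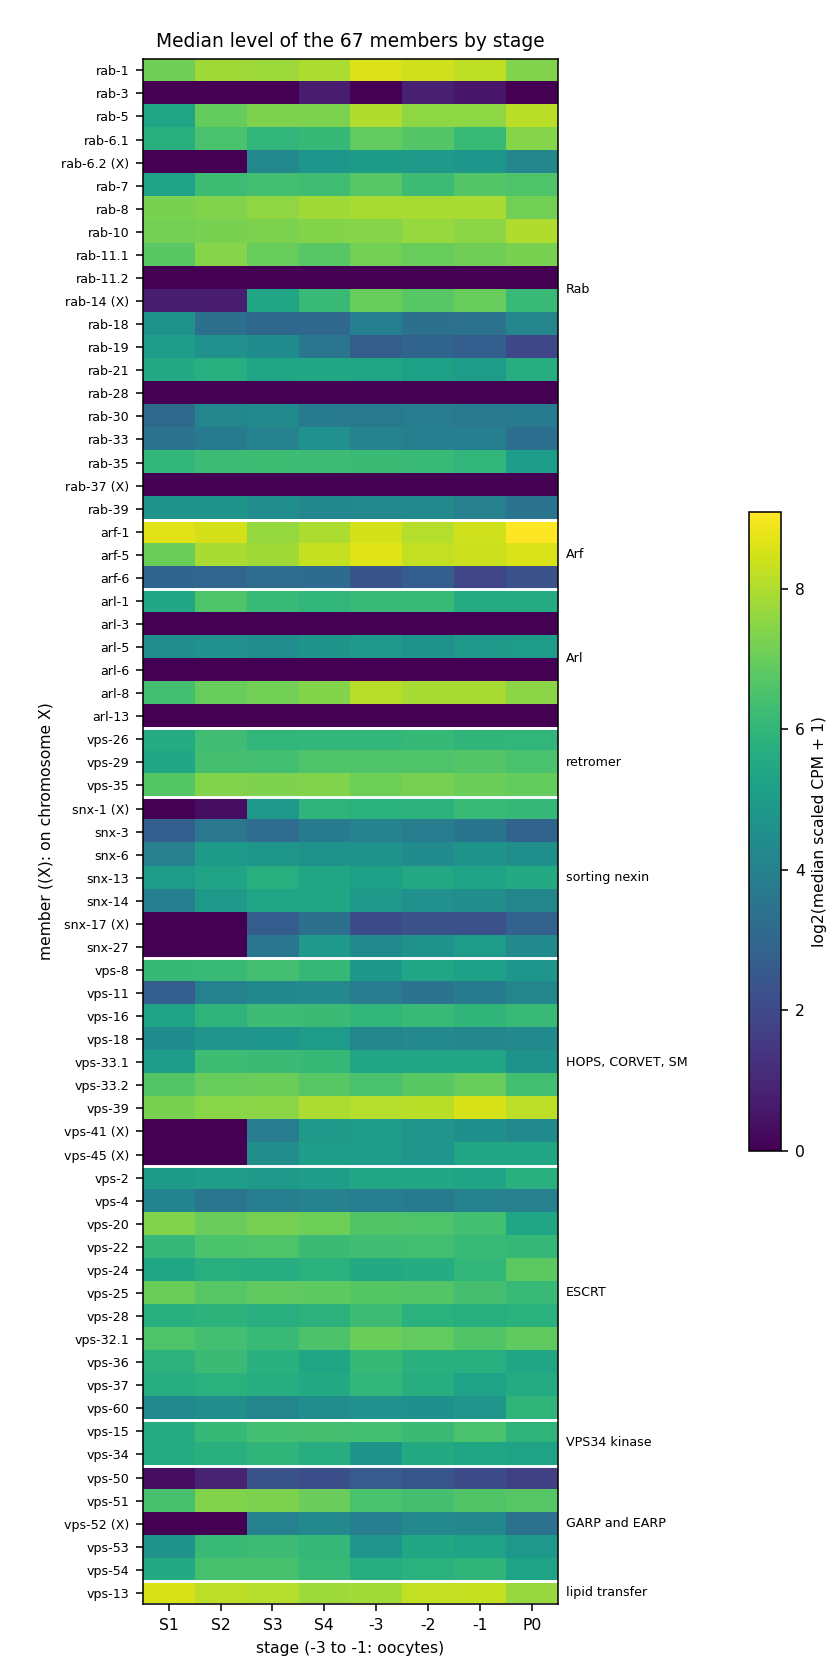
Median level of each of the 67 members (rows, grouped by class) in each stage (columns), as log2 of scaled CPM plus 1. Most rows are bright throughout, 7 of the 8 rows marked X turn from dark to bright between S2 and S3, and rab-11.2, rab-28, rab-37, arl-3, arl-6 and arl-13 are dark throughout.

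For comparison between stages TPM was not used. Over 6354 genes with a mean of at least 5 TPM, the median gene stood at 19.1 TPM in S1 and at 44.7 in S4, so the typical gene shifted on this scale. Levels between stages are therefore given as CPM, library-scaled read counts with TMM factors over all used libraries, on which that median gene stood at 47.8 in S1 and 53.1 in S4. TMM factors are set to hold the typical gene steady, so this steadiness follows from the scaling. Neighboring stages were compared by the two-sided quasi-likelihood test of edgeR, in which batch and the share of genes detected entered as covariates. A gene was called when its Benjamini-Hochberg adjusted p was under 0.05 and its fold change above 1.5. A log2 fold change is the later stage over the earlier one.

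The first step, from the mitotic region and transition zone in S1 to pachytene in S2, brought the broadest change among the members. Of 51 members tested, 16 were called higher and 1 lower in S2. The share of members called higher was 31.4%, while of all 5253 genes tested 8.19% were called higher and 8.83% lower. The median fitted log2 fold change was 0.33 over the members and -0.04 over all genes.

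Among the endosomal Rabs, rab-5 changed most. It ran from 7.89 to 174 CPM in S1, with a median of 41, and from 65.1 to 262 in S2, with a median of 122. Each of the 11 worms that gave both segments had more rab-5 in S2, although the 2 groups of libraries overlapped, as they did for every member called in this step. The fitted log2 fold change was 1.59 (SE 0.22, adjusted p = 2.32e-06, edgeR). The gene lies on chromosome I at 9308442 to 9310221 of WBcel235, on the plus strand. The late endosomal rab-7 went from a median of 36.9 CPM (8.57 to 105) to 76.5 (62.0 to 185), and again all 11 worms had more in S2 (log2 fold change 1.11, SE 0.20). The recycling endosome Rab rab-11.1 rose from 108.2 CPM (49.8 to 655) to 172 (110 to 481), also in 11 of 11 worms (0.85, SE 0.21). The 3 Rabs of the secretory path called as well were rab-1 at 0.81 (SE 0.22), rab-6.1 of the Golgi at 0.86 (SE 0.20) and rab-30 of the Golgi at 1.05 (SE 0.37).

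All 3 subunits of the retromer core were called higher in S2. vps-35 went from a median of 103 CPM (28.5 to 654) to 163 (135 to 283), vps-26 from 47.0 (20.5 to 81) to 78.6 (45.2 to 121), and vps-29 from 42.9 (8.68 to 103) to 84.5 (30.2 to 120). Their fitted log2 fold changes were close, 0.70 (SE 0.25), 0.63 (SE 0.17) and 0.62 (SE 0.21), and 9, 10 and 10 of 11 worms had the higher value in S2. Of the sorting nexins that work with retromer, snx-3 rose by 1.24 (SE 0.45) and snx-6 by 1.14 (SE 0.30). The call of vps-35 was lost without the detection covariate, as was that of snx-3. With all 8 stages in one fit, vps-26, vps-35 and snx-3 were not called. With all mapped libraries, used or not, none of the 3 retromer subunits was called, nor was snx-3 or snx-6.

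GARP tethers endosome-derived vesicles at the Golgi and EARP acts on recycling endosomes, and 2 of their 3 subunits tested were also called. vps-51, shared by both complexes, rose from 87.1 CPM (3.85 to 156) to 163 (56.5 to 242), and vps-54 from 45.6 (5.91 to 100) to 85.1 (52.5 to 118). The third, vps-53, had a log2 fold change of 0.63 (SE 0.33) and an adjusted p of 0.17 in edgeR. Further members called higher were arf-5 (1.01, SE 0.17), arl-1 of the trans-Golgi (1.09, SE 0.39) and arl-8 (0.60, SE 0.19). No ESCRT member of 11 was called in this step by edgeR or DESeq2, and their median log2 fold change was 0.12. Of these, vps-20 had a log2 fold change of -0.49 (SE 0.17) and vps-36 of 0.56 (SE 0.23), neither past the fold limit.

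The member called lower in S2 was rab-18, a Rab of the ER and lipid droplets. It fell from a median of 23.7 CPM (2.38 to 71.4) to 9.28 (4.20 to 26.8), in 11 of 11 worms, with a log2 fold change of -1.28 (SE 0.34). Other Rabs were not called, with log2 fold changes of 0.01 (SE 0.14) for rab-10, -0.12 (SE 0.15) for rab-8 and 0.28 (SE 0.15) for rab-35. The plasma membrane GTPase arf-6 stood at 6.59 and 6.75 CPM, and vps-34, the lipid kinase that makes endosomal PI3P, at 46.8 and 53.5. With all mapped libraries, including those the quality table does not mark as used, 5 of 51 members were called (375 of 5209 genes were). These members were rab-5, arf-5, arl-1, vps-51 and rab-18. The 5 oocyte genes were all called higher along with these members, their sum running from 51.1 to 601 TPM in S1 and from 303 to 2556 in S2. Their part in the result was not tested.

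**Figure D2:**
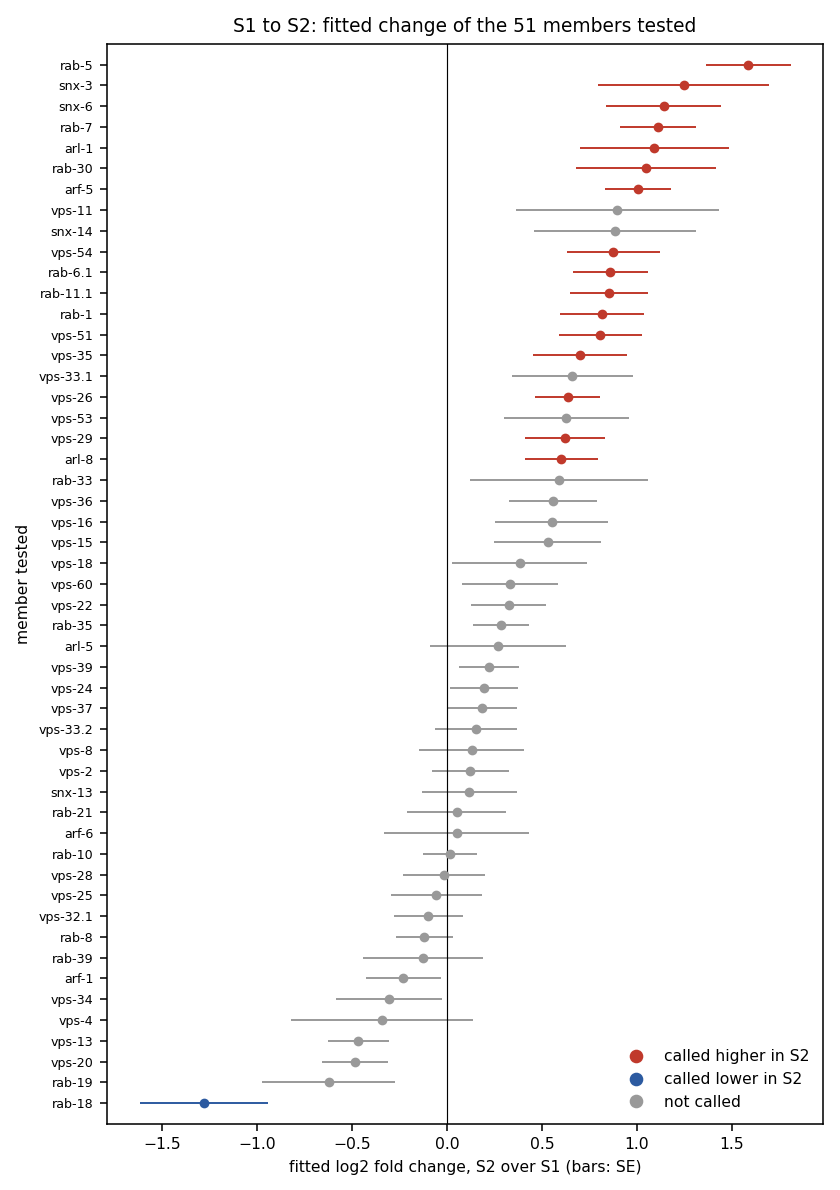
Fitted log2 fold change of S2 over S1 for the 51 members tested (points, bars are standard errors), sorted by size. The 16 members called higher, led by rab-5 at 1.59, lie at the top, and rab-18 at -1.28 is at the bottom.

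Between S2 and S3, where germ cells pass the loop, the members that appeared were mostly those of the X chromosome. The X chromosome is known to be silenced in the distal hermaphrodite germline of this species. Of the members 8 are X-linked, and all 8 had a median below 1 TPM in both S1 and S2. Of the 59 autosomal members, 8 did. Among members that reached 1 TPM in some stage, 7 of 7 X-linked and 2 of 53 autosomal members were below 1 TPM in both distal segments. Among all genes the shares were 86.8% of 1023 X-linked and 25.8% of 7505 autosomal genes, so the X-linked members shared this with most genes of their chromosome.

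The HOPS subunit vps-41 was almost unread in the distal segments. It held 1 read in the 19 S1 libraries together and 21 in the 17 S2 libraries, whereas 1209 reads fell on it in S3. Its levels ran from 0.00 to 4.38 CPM in S2, with a median of 0.00, and from 1.17 to 52.5 in S3, with a median of 13.1. All 9 worms that gave both segments had more in S3. vps-41 lies on X at 5283831 to 5289724, plus strand. The endosomal Rab rab-14 (X, 15604635 to 15606635, minus strand) had a median of 0.598 CPM in S2 (0.00 to 6.57) and of 40.9 in S3 (5.45 to 100). It was higher in S3 in 9 of 9 worms, and reads of it were present in all 62 libraries from S3 to the -1 oocytes but in 21 of the 36 of S1 and S2.

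vps-45, a Sec1/Munc18 family protein for fusion at endosomes, also rose in 9 of 9 worms, from 0.00 CPM (0.00 to 11.8) to 21.5 (6.27 to 59.8). These 3 genes were called higher (adjusted p = 8.42e-05, 2.90e-04 and 0.020 for vps-41, rab-14 and vps-45 in edgeR). A fitted fold change against libraries at or near 0 reads depends on the prior count, so the reads and levels are the measure of size here. X-linked genes were called higher at 43.8% in this step and autosomal genes at 5.77%, against 3 of the 6 X-linked members tested. The X-linked members tested passed the filter on low counts mainly through their S3 libraries, so they had to differ, and their count supports nothing further.

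Of the remaining X-linked members, snx-1, rab-6.2 and vps-52 showed the same course in their levels without passing the fitted test in this step. Each was called without the detection covariate and with all 8 stages in one fit. Each was also called with worm as a random effect, added after seeing the data, but not by DESeq2 or in batch A alone. snx-1, a retromer-associated sorting nexin, went from 0.25 CPM (0.00 to 32.4) in S2 to 28.5 (6.95 to 90.1) in S3, with an adjusted p of 0.19 in edgeR. The Golgi Rab rab-6.2 went from 0.00 (0.00 to 13.1) to 18.4 (0.307 to 48.9), adjusted p = 0.35 in edgeR, and the GARP subunit vps-52 from 0.00 (0.00 to 10.1) to 15 (0.00 to 29.2), adjusted p = 0.74. Both batch B libraries of S3 were low in rab-6.2, with a median of 0.32 CPM, against 19.8 in batch A. snx-17 was too low for the test, with 29 reads in the 36 S1 and S2 libraries and 455 in S3. rab-37 had no read before the -1 oocyte.

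HOPS, GARP and the rab-6 copies each had an X-linked gene with a median of 0.00 TPM in S1. In S1 the other 5 HOPS subunits had medians between 0.571 (vps-11) and 24.5 TPM (vps-39), while vps-41 was at 0.00. GARP held 15.8 TPM of vps-51, 6.51 of vps-53 and 6.80 of vps-54 in S1 with vps-52 at 0.00, and vps-52 was the lowest of its 4 subunits in every stage. The copies rab-6.1 (III) and rab-6.2 (X) differed in the same way. rab-6.2 took a median of 0.00% of their summed TPM in S1 (at most 1.34%) and 0.00% in S2, but 16.8% in S3 (0.109% to 34.9%) and 25.8% in S4. Reads that match both copies could be assigned to either, which makes these shares approximate. The copies rab-11.1 and rab-11.2, both on chromosome I, differed as well, rab-11.2 taking a median of 0.00% in every stage.

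An autosomal sorting nexin had levels like those of the X-linked members. snx-27 (I, 10543024 to 10546429, plus strand), which recycles receptors to the cell surface, had a median of 0.00 CPM in S1 and S2, with 55 reads in the 19 S1 libraries and 46 in the 17 S2 libraries. Its median was 10.8 CPM (0.00 to 30.5) in S3 and 28.6 (1.2 to 50.2) in S4. It was too low for the test between S2 and S3, and its log2 fold change of 1.11 (SE 0.42) between S3 and S4 was not called.

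**Figure D3:**
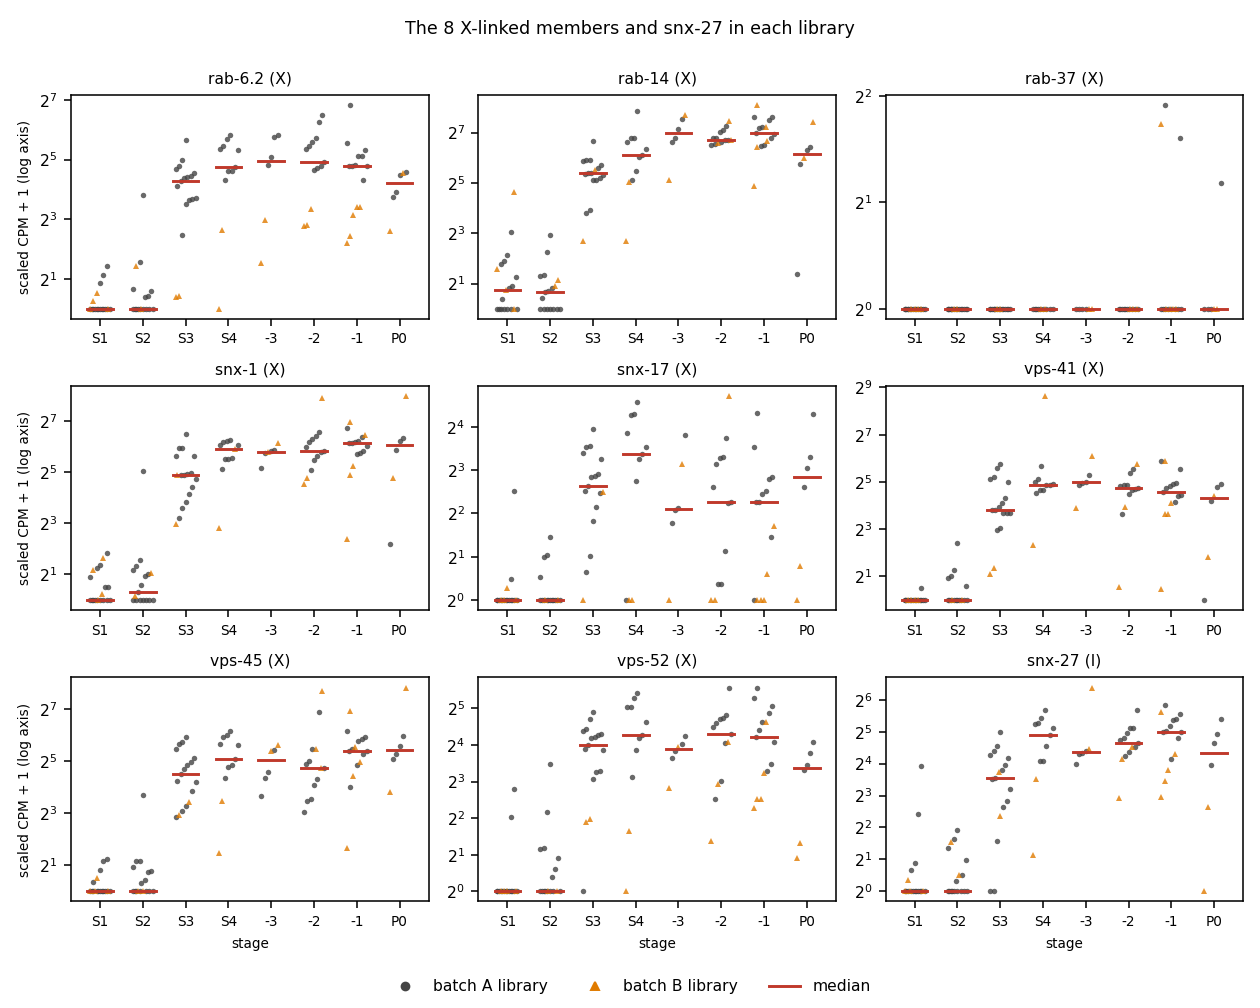
Scaled CPM plus 1 (log axis) of the 8 X-linked members and of snx-27 in each used library by stage, batch A as circles, batch B as triangles, medians as lines. Apart from rab-37, the medians lie at or under 0.687 CPM in S1 and S2 and are higher in S3, vps-41 reaching 13.1 and rab-14 reaching 40.9.

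In all, 5 of 57 members tested were called between S2 and S3, 4 higher and 1 lower, and of all 6217 genes 8.80% were called higher and 2.40% lower. The fourth called higher was the ESCRT-I subunit vps-28, and the member called lower was rab-35, which in this worm controls recycling of the yolk receptor. Neither call was visible in the CPM, which are not adjusted for the covariates. vps-28 had medians of 58.2 and 51 CPM and was lower in S3 in 7 of 9 worms, and rab-35 had 74.2 and 76.6 CPM and was lower in 4 of 9. Their fitted values, 1.01 (SE 0.27) and -0.87 (SE 0.25), are at an equal share of genes detected, and 5895 genes were detected on average in S2 and 7711 in S3. Without that covariate neither was called. With worm as a replicate block, which left 9 worms, no member and no gene was called by edgeR, and 5 members had an unadjusted p under 0.05. With worm as a random effect in limma voom, which uses all libraries and was added after seeing the data, 9 were called, including all 5. Of all 6217 genes, 968 were called in that fit. The 5 oocyte genes summed to 1798 to 4414 TPM in S3 and the 8 sheath genes to 14.2 to 343, against 0.271 to 109 in S2, and their part was not tested.

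From S3 to the -1 oocyte few members were called between neighbors, which does not show that the others were unchanged. Between S3 and S4 1 of 60 members was called, and it was lower (3.89% of 7068 genes were called lower). It was the GARP subunit vps-54, with medians of 85.8 (35.4 to 148) and 69.5 CPM (17.9 to 93.5), fitted at -0.62 on the log2 scale (SE 0.19; edgeR adjusted p = 0.043). It was lower in S4 in 3 of 4 worms, and it was not called in 12 of 14 other settings, among them worm as a replicate block, where no member was called. Between S4 and the -3 oocyte 1 of 60 was called lower (2.01% of 7132 genes were), the CORVET subunit vps-8. It fell from 65 CPM (26.7 to 121) to 27.4 (5.85 to 47.2), and was lower in 3 of 3 worms, the fitted log2 value being -1.30 (SE 0.29; edgeR adjusted p = 0.015). The call was lost without the -3 oocyte of worm 33, where no member was called. With worm as a replicate block, over 3 worms, vps-8 was not called. The 5 of 60 members called there were rab-14, rab-19, vps-16, vps-20 and vps-53, while 606 of all 6888 genes were called.

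Between the -3 and -2 oocytes no member was called in edgeR (0% of 7205 genes), 4 having an unadjusted p under 0.05, and DESeq2 called none. Between the -2 and -1 oocytes none of 60 was called in edgeR or DESeq2 (0.402% of 6958 genes), and none had an unadjusted p under 0.05 in edgeR. rab-5 had medians of 255, 188 and 184 CPM in -3, -2 and -1 oocytes. Those of the retromer subunit vps-35 were 135, 148 and 131.

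Over the whole arm, a fit of all 7 stages before fertilization found 34 of 61 members to vary (58.8% of 9005 genes did). Between the ends, S1 and the -1 oocyte, 24 of 61 were called, 17 higher and 7 lower. The member shares, 27.9% higher and 11.5% lower, were near those of all genes, of which 27.9% were called higher and 14.3% lower. By class, 10 of 17 Rabs, 4 of 9 HOPS, CORVET and SM proteins, 3 of 7 sorting nexins and 2 of 11 ESCRT members were called.

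The 6 X-linked members called in this contrast were all higher, vps-41, vps-45, snx-1, rab-6.2, vps-52 and rab-14. snx-1, for example, held a median of 0.00 CPM in S1 (0.00 to 2.57) and 69.3 in the -1 oocyte (4.17 to 123), and the groups did not overlap. rab-14 did not overlap either, at 0.687 CPM (0.00 to 23.7) against 125 (28 to 272). The same held for vps-45 and rab-6.2, while vps-41 and vps-52 overlapped. How often X-linked genes in general, or all genes, did not overlap was not measured. Among X-linked genes 60.4% were called higher here, and among autosomal genes 23.1%. The 6 members had 22 to 463 reads in the 36 S1 and S2 libraries together. They passed the filter on low counts mainly through the later stages, so a higher value was largely set in advance. Their direction and the gaps between groups are given as a description. The other X-linked member tested, snx-17, was fitted at -0.18 in the -1 oocyte relative to S1 and was not called.

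The autosomal members called higher numbered 11, among them rab-3, snx-27 and rab-5. snx-27 stood at 0.00 CPM in S1 and at 31 in the -1 oocyte in median, so its fitted size, like that of rab-3, depends on the prior count. rab-3, the synaptic vesicle Rab, stayed below 1 TPM in median at every stage, with 1 read in S1 and 102 in the -1 oocytes, so its call rests on very few reads. Like the X-linked members, snx-27 and rab-3 passed the filter on low counts mainly through the later stages. A higher value was thus largely set in advance for both, and their direction is given as a description. Markers of neurons were near 0, the 5 neuron genes summing to a median of 0.545 TPM in -1 oocytes. rab-5 rose from 41 CPM in S1 to 184 (109 to 604) in the -1 oocyte, in 7 of 7 worms that gave both, and its fitted log2 fold change was 2.45 (SE 0.33; edgeR adjusted p = 1.65e-09). The HOPS subunit vps-39 went from 153 CPM (100.8 to 332) to 370.3 (231 to 1305), also in 7 of 7 worms (1.66, SE 0.28). arf-5 rose by 1.55 (SE 0.32) and arl-8 by 1.33 (SE 0.36), both in 7 of 7 worms. Of the others, snx-6 and vps-29 were higher in 7 of 7 worms, rab-7 in 6, vps-2 in 5 and rab-6.1 in 4. The calls of vps-2 and rab-6.1 were lost without the detection covariate.

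The members called lower in the -1 oocyte than in S1 numbered 7. rab-19 had medians of 33.5 CPM in S1, 20.6 in S3 and 10.8 in S4, and of 5.35, 6.54 and 5.58 in -3, -2 and -1 oocytes (0.0885 to 35.9 in the last), and it was lower in 7 of 7 worms (log2 fold change -1.86, SE 0.74). Relative to S1, the fit with its covariates gave 0.04 at S3, -0.02 at S4 and -1.46 at the -3 oocyte, so the lower medians of S3 and S4 were not matched by the fitted values. Its exons share 31.1% of their length with another protein-coding gene on the same strand, and its call was lost with worm as a replicate block. The ESCRT-III subunit vps-20 went from 163 CPM (10.5 to 246) to 80.9 (3.13 to 140), lower in 6 of 7 worms (-1.05, SE 0.36). Its level differed strongly between batches, with -1 oocyte medians of 102 CPM in batch A and 6.62 in batch B.

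Further members called lower were rab-18, rab-39, vps-34, vps-8 and rab-35. rab-18, already lower in S2, had a log2 fold change of -1.61 (SE 0.52). rab-39 had medians of 24.9 and 14.4 CPM (-1.71, SE 0.54) and vps-8 of 67.3 and 35.5 (-1.16, SE 0.47). For vps-34 and rab-35 the median CPM differed little, 46.8 and 39.2 CPM for vps-34 and 63.3 and 61.9 for rab-35, and both calls depended on the covariate. Without it, rab-35 had a log2 fold change of 0.15. Within worms, rab-39 was lower in the -1 oocyte in 6 of 7, rab-18, vps-8 and vps-34 in 5, and rab-35 in 4. With worm as a replicate block, over all 7 stages, 20 of 61 members were called (3038 of 9485 genes were). The members rab-7, rab-19, rab-35, vps-8, vps-20, vps-29 and vps-34 were not among them. The Rabs rab-1 (0.13, SE 0.33), rab-10 (-0.12, SE 0.37) and rab-8 (0.42, SE 0.25) were not called.

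Both spermatheca genes and 3 of the 8 sheath genes were called higher in the same contrast, the sheath sum running from 0.967 to 240 TPM in S1 and from 84.2 to 4234 in the -1 oocyte. Their part in these results was not tested. Without the 4 used libraries holding over 1% of sperm or intestine TPM, a setting chosen after seeing the data, 23 of these 24 members were called, rab-19 being lost.

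**Figure D4:**
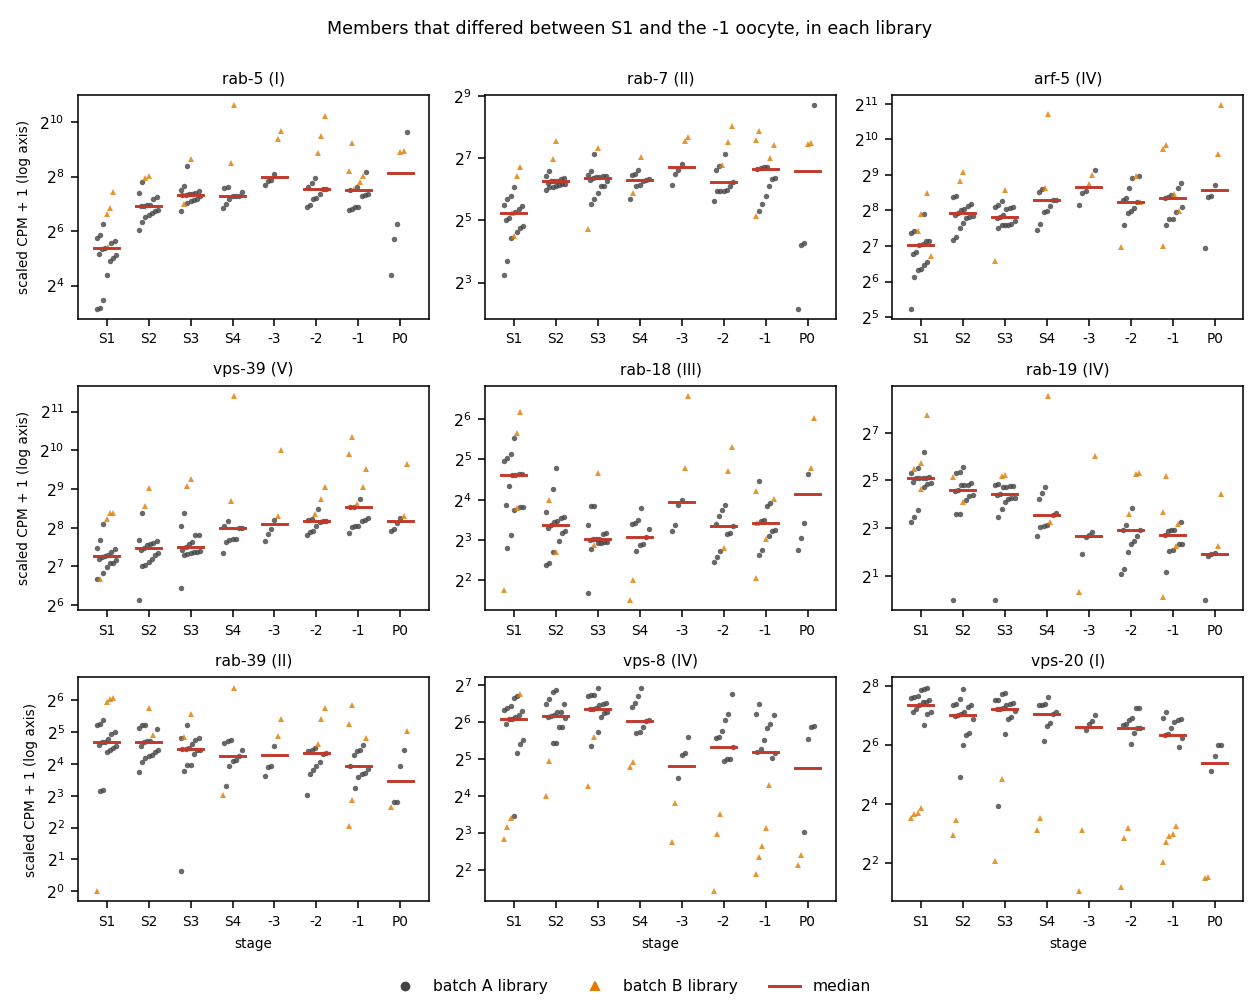
Scaled CPM plus 1 (log axis) of 9 members in each used library by stage, batch A as circles, batch B as triangles, medians as lines. rab-5 climbs from a median of 41 CPM in S1 to 184 in the -1 oocyte, rab-19 has medians of 33.5 in S1 and 5.58 in the -1 oocyte, and vps-20 is lower in batch B than in batch A in median at every stage.

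At fertilization, from the -1 oocyte to the zygote, 2 of 60 members were called, both lower, while 5.69% of 7553 genes were called lower. vps-20 had a median of 80.9 CPM in -1 oocytes and 41 (1.79 to 63.8) in P0. Within batch A its medians were 102 and 55.7 CPM, and within batch B 6.62 and 1.85, so its median was lower in both batches. The fitted log2 value was -1.24 (SE 0.35, edgeR adjusted p = 0.033). vps-52 went from 17.5 CPM (3.84 to 46.4) to 9.39 (0.897 to 15.8), with batch medians of 22 and 11.3 in A and 4.79 and 1.19 in B (fitted -2.09, SE 0.56; edgeR adjusted p = 0.025). The stage of the 2 batch B zygotes is less certain, since the quality table enters it as Unknown in one column and Zygote in another, with the same worm name for both, and they were taken as P0 from the sample labels. Leaving out either of them ended both calls, and without zygote 2 or zygote 4, both of batch A, vps-20 was not called. In a fit of batch A alone neither vps-20 nor vps-52 was called, and the member called there was rab-8. No limma fit on TPM called either of them.

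Several members spread widely between the 6 zygotes. rab-1 ran from 44.4 to 624 CPM with a median of 165, against 203 to 539 with a median of 294 in -1 oocytes, and was not called (adjusted p = 0.67, edgeR). rab-6.1 ran from 28.8 to 1025 CPM with a median of 172, against 47.0 to 276 with a median of 69.4 (adjusted p = 0.30, edgeR). In both, zygotes lay below the lowest and above the highest -1 oocyte. rab-11.1, whose protein is required for cortical granule exocytosis at this step, held medians of 137 and 151 CPM, a log2 fold change of -0.15 (SE 0.37). Of the 8 sheath genes 6 were called lower in P0, their sum running from 84.2 to 4234 TPM in -1 oocytes and from 1.59 to 149 in P0, and their part was not tested.

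**Figure D5:**
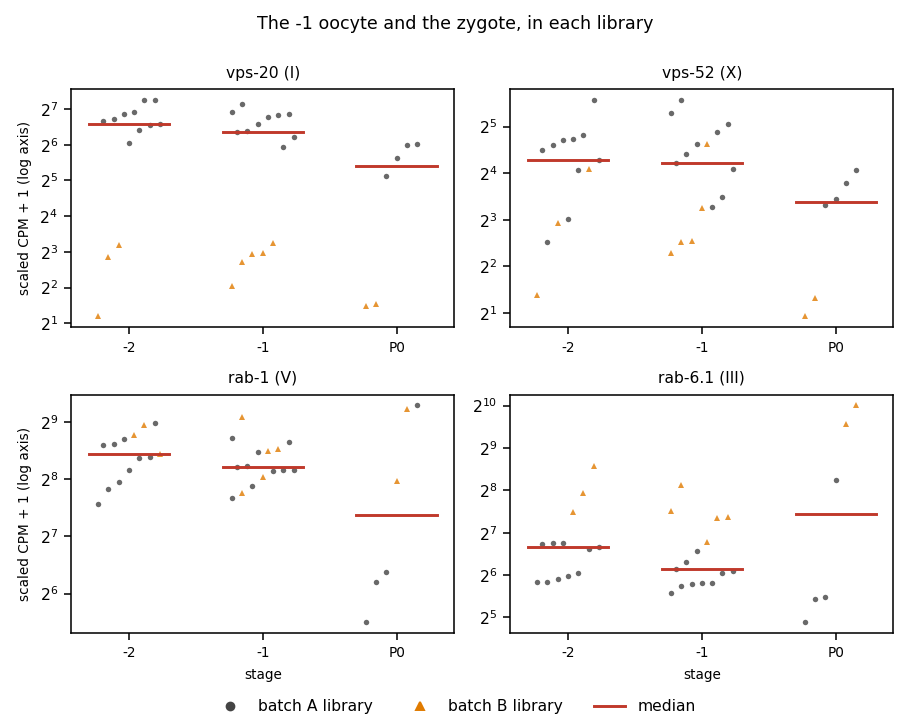
Scaled CPM plus 1 (log axis) of vps-20, vps-52, rab-1 and rab-6.1 in each -2 oocyte, -1 oocyte and zygote library, batch A as circles, batch B as triangles, medians as lines. vps-20 and vps-52 are lower in median in P0 than in the -1 oocyte within each batch, batch B having 2 zygotes, and rab-6.1 ranges from 28.8 to 1025 CPM over 6 zygotes.

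The members below 1 TPM in median in every stage numbered 7. They were rab-3, rab-11.2, rab-28, rab-37, arl-3, arl-6 and arl-13. rab-28, arl-3, arl-6 and arl-13 are known for roles in cilia, and the 6 ciliated neuron markers summed to medians of 0.162 to 3.27 TPM. Over all 104 libraries with 644702230 reads on genes, rab-11.2 held 1 read, arl-6 held 6, rab-28 held 7 and arl-3 held 12. The near copy of rab-11.2, rab-11.1, was at 80.2 TPM in median. A count of 0 in the shallowest library allows up to 2.36 CPM, and in the deepest up to 0.0408. vps-50, the subunit particular to EARP, was the next lowest, reaching at most 1.26 TPM in median. The copies vps-33.1 and vps-33.2 were both expressed, vps-33.2 taking a median share of 56.9% to 77.9% of their summed TPM over the stages. The near copies arf-1.1 and vps-32.2 were not analysed here.

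A list of 60 other genes of the pathway held regulators, coats, recycling factors and the exocyst. Between S1 and S2 7 of 45 tested were called, all higher (8.19% of all genes were), among them the yolk receptor rme-2 (1.92, SE 0.39), the recycling endosome gene rme-1 (0.89, SE 0.16), both clathrin chains chc-1 (0.67, SE 0.22) and clic-1 (0.94, SE 0.21), and gdi-1, which extracts Rabs from membranes (0.63, SE 0.17). Between S2 and S3 11 of 57 were called, 10 higher and 1 lower. Of these 10, 8 were X-linked, where 43.8% of all X-linked genes tested and 5.77% of autosomal ones were called higher. Among the 8 were dynamin dyn-1, with a median of 0.00 CPM in S2 and 38.1 in S3, the AP2 subunits dpy-23 and aps-2, also at 0.00 in S2, epsin epn-1, and rme-4, the exchange factor that acts on RAB-35. Like the X-linked members, they passed the filter on low counts mainly through S3, and their count supports nothing further. Between S1 and the -1 oocyte 25 of 58 were called, 22 higher and 3 lower, beside 27.9% and 14.3% of all genes. Those higher included the X-linked dyn-1, dpy-23, aps-2, epn-1 and rme-4. Of all genes, 60.4% of the X-linked and 23.1% of the autosomal ones were called higher in this contrast. Genes at or near 0 CPM in S1 passed the filter mainly through later stages, so a higher value was largely set in advance for them. Others of the 22 were well read in S1, among them the autosomal gdi-1, rme-2 and tbc-2, at medians of 202, 198 and 105 CPM. The count of 22 mixes both kinds and supports nothing further. From the -1 oocyte to P0 1 of 58 was called, rme-2 at -2.79 (SE 0.74), beside 5.69% of all genes lower.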

How the data were processed

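Each library came from 1 gonad segment, oocyte or zygote. The authors trimmed reads with Trim Galore, aligned them to WBcel235 with HISAT2 and deposited HTSeq read counts per gene, not normalized, as whole numbers. TPM, which the authors deposited as well, were Salmon estimates added up per gene. The quality table that the authors deposited gave the batch, whether a library was used and the fraction of reads taken by some gene classes. Tool versions are not given in the sources used here. HTSeq was run at its default settings, and 29 members share exonic bases with another gene, 5 of them at least 10% of their exonic length with a protein-coding gene (rab-19, vps-22, vps-24, vps-29 and vps-60).

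From the counts, 819 genes were set aside, none of them a member: mitochondrial, rRNA and msp-tracking genes, the last following the major sperm protein genes in level. Each pair of neighboring stages was fitted in edgeR 4.0.16 (R 4.3.3), with filterByExpr at a minimum count of 10, TMM and the robust quasi-likelihood F test, and S1 against the -1 oocyte in a fit of 7 stages. Batch and the share of genes detected at a TPM of at least 1 were covariates, and p-values were adjusted over all genes tested. TPM compared genes. Scaled CPM, chosen after seeing the data, compared stages in place of TPM. DESeq2 1.42.0 and limma 3.58.1 were alternatives, with the filter, factors, covariates, batch, libraries, left-out genes and left-out replicates varied. Figures and levels were made in Python 3.11.15 with pandas 2.3.3, numpy 2.4.6 and matplotlib 3.10.9. The tests were tried on simulated counts.

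The sample labels name the worm of each used library, so same-numbered libraries come from the same animal. The exceptions are the zygotes unknownA, unknownB and unknown5, whose labels give the worm as unknown. Deviations from the stage means correlated at a mean of 0.0518 to 0.282 within worms and -0.0779 to -0.0164 between worms, over 3 to 11 worms a comparison. No named worm gave both a used -1 oocyte and a used zygote, and for the zygotes of unknown worms this cannot be told. Worms are biological replicates, and p-values count libraries of 1 worm as separate within a fit without the block.

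Members named in the text are those called with the largest changes (up to 8 a direction, average log2 CPM of at least 3), the highest of each class by TPM, near copies, members known in endocytosis or exocytosis, and those below 1 TPM throughout. rab-1, snx-17, vps-11, vps-16, vps-26, vps-36 and vps-53 were named in places outside this rule, after their values were seen. Members and lists were chosen with earlier results of these data known. The symbols rab-2, arf-3, arl-7, snx-9 and snx-24 matched no gene under the rule. Rab genes with symbols outside the rule, unc-108 among them, were in the list of 60 other genes of the pathway. The limit for a count of 0 was 3 counts, and it covers counting error only.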

Additional observations from a re-analysis of the deposited data

Results flagged for a closer look

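Among the 115 combinations of a member and a stage with 6 libraries and a median of at least 5 CPM, 21 (18.3%) had 1 library far from the other 5. For normally distributed values chance meets the rule in about 1 group in 20. It was applied to CPM without logs, and all 21 lay on the high side. The 18.3% is therefore a description and cannot be set against that rate. Of these 21, 19 were in batch B libraries, and each stage has 2 of those among its 6. The -3 oocyte of worm H (batch B) was high for 9 members, with 890 CPM of rab-1, 697 of rab-10, 63.5 of rab-19, 82.2 of snx-27, 67.7 of vps-11, 197 of vps-15, 1030 of vps-39, 115 of vps-54 and 62 of vps-60. The -3 oocyte of worm J (batch B) held 93.6 CPM of rab-18 and 47.6 of vps-4.

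In P0, the zygote unknownA (batch B) held 2000 CPM of arf-5, 127 of arl-1, 899 of rab-10, 496 of vps-32.1 and 800 of vps-39. The zygote unknownB (batch B) held 64.1 CPM of rab-18, 249 of snx-1 and 224 of vps-45. The zygote unknown5 (batch A) held 161 CPM of snx-13 and 1470 of vps-13.

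For some members the change between stages differed between the batches, by an edgeR interaction term adjusted over all genes. Given as batch B minus batch A in log2 fold change, arf-1 differed by -2.06 between S2 and S3. Between S3 and S4, where batch B has 2 libraries in each stage and 1091 of 7068 genes differed, the values were 1.52 for arf-1, 1.77 for arf-5, 1.87 for rab-5, 1.97 for rab-8, -2.66 for rab-18, -4.23 for rab-33, -8.41 for snx-17, -1.89 for vps-33.1, 6.73 for vps-41 and -2.54 for vps-60. Later differences were 4.50 for rab-18 between S4 and the -3 oocyte, -4.60 for vps-18 between the -2 and -1 oocytes and 4.06 for snx-3 between the -1 oocyte and P0. Their cause was not tested.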

How the results depend on the processing

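Of the alternative counts of members called, 40 lay more than 1.5 times from the count reported. Between S1 and S2, all mapped libraries gave 5 in place of 17. Between S2 and S3 (5), the count was 9 without the detection covariate, 9 with worm as a random effect (added after seeing the data), 1 with all mapped libraries, 3 in batch A, 12 with all 8 stages in one fit, and 8 and 12 with limma on log2(TPM + 1) and log2(TPM + 0.1). These 2 gave 1 and 4 higher and 7 and 8 lower, where edgeR gave 4 higher and 1 lower. Between S3 and S4 (1), it was 0 with RLE factors, without the covariate and with all mapped libraries, 3 with DESeq2, 2 in batch A, and 8, 7 and 5 with limma at TPM + 1, TPM + 0.1 and no filter. All of these 3, 2, 8, 7 and 5 were higher in S4, as was the 1 member called without the low-count filter, with all 8 stages and with worm as a random effect, whereas the member reported was lower. Between S4 and the -3 oocyte (1), it was 3 with DESeq2 and 0 with all mapped libraries, in batch A, with all 8 stages and with each limma fit. Leaving out 1 -3 oocyte gave 0 to 2. From the -1 oocyte to P0 (2), it was 1 without the 4 libraries high in sperm or intestine genes (added after seeing the data), without the low-count filter, with all mapped libraries and in batch A, 6 with all 8 stages (4 of them higher) and 0 with each limma fit, and the 1 with all mapped libraries was higher. The 1 in batch A was rab-8 and the 1 with all mapped libraries was rab-6.1, neither of them among the 2 reported. Leaving out 1 zygote gave 0 to 2. Between the -3, -2 and -1 oocytes, the counts of 0 held under the alternatives run.

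With worm as a replicate block, 21 members were called between S1 and S2 (all 17 among them), 0 between S2 and S3, 0 between S3 and S4, 5 between S4 and the -3 oocyte, 29 of 34 by count over all stages and 20 between S1 and the -1 oocyte. Of all genes tested, 1206 of 5225 were called between S1 and S2 and 606 of 6888 between S4 and the -3 oocyte. Over all stages 3819 of 9485 were called, and 3038 between S1 and the -1 oocyte.

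Of 594 alternatives for 50 called member results, 475 kept the call and 118 lost it in the same direction. The change of rab-35 between S1 and the -1 oocyte turned to 0.15 without the detection covariate. The covariates follow stage in part, since more genes were detected from S3 on. Batch B holds 2 to 5 libraries a stage, so it adds little precision. The cause of these changes was not tested.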
